A study of Mus musculus with 10 samples.

Results

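The genes described here are the families of enzymes that attach glutathione, sulfate, acetyl or amino acid groups to small molecules, with the flavin monooxygenases and epoxide hydrolases that prepare or clear such molecules. They were chosen by symbol, as probe sets with 1 gene symbol that begins with Gsta, Gstk, Gstm, Gsto, Gstp, Gstt, Gstz, Mgst, Sult, Nat or Fmo followed by a digit, Acsm, Glyat or Ephx. This gave 62 genes with 92 probe sets, out of 18193 named genes with 34945 probe sets. They comprise 20 cytosolic, kappa and related glutathione S-transferases, 3 microsomal glutathione S-transferases, 13 sulfotransferases, 13 N-acetyltransferases, 5 medium-chain acyl-CoA synthetases and glycine acyltransferases, 4 flavin monooxygenases and 4 epoxide hydrolases. A few share only the symbol with drug metabolism, such as Nat10, which encodes an RNA acetyltransferase.

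RNA was measured on 10 Affymetrix mouse arrays, each hybridized with RNA of 1 to 2 urogenital systems from mouse embryos at embryonic day 15.5. The urogenital system at this age holds the kidneys, gonads, genital ducts, adrenal glands and bladder. In 5 pools the embryos carried the cneo allele of the Wnt ligand gene Wnt9b on both chromosomes (Wnt9bcneo/cneo), called homozygous pools below, and the other 5 are called control pools. The control genotype label is Wnt9bcneo/+, while the titles say wild type, so the controls may carry 1 cneo allele. The labels used here give no sex or strain, nor what the allele does to the transcript.

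Conjugating enzymes make foreign and endogenous molecules more soluble and ready for export. Glutathione S-transferases join glutathione to electrophiles, and the product is trimmed and acetylated to a mercapturate that leaves with the urine. Sulfotransferases take sulfate from the donor PAPS, while Acsm enzymes activate medium-chain and aromatic acids to acyl-CoA, which Glyat joins to glycine. In the adult kidney these reactions are prominent in the proximal tubule, next to its organic anion transporters.

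Values are linear intensities with the same trimmed mean of 500 on every array. For differences they were floored at 16 and taken to log2, and a difference always means homozygous minus control. An intensity ranks pools for 1 probe set and does not rank genes against each other. The median intensity was 74.7 to 98.6 per array. Fewer probe sets were at or under the floor in homozygous pools (19.9% to 21.1%) than in control pools (22.2% to 23.0%), without overlap, and the part of this in the values of dim genes was not tested. Actin signal at the 3' end relative to the middle of the transcript, a sign of RNA integrity, was 94.8 in control pool 1 and 97.7 in homozygous pool 5, against 9.87 to 33.1 elsewhere. All 5 control pools and homozygous pools 1 and 2 were low in Xist, which is made from an inactive X (log2 6.07 or less). Homozygous pools 3, 4 and 5 were high (log2 13.75 or more), so the Xist level is tied to genotype here. The number of arrays limits the precision, and a p-value here reflects how pools of 1 genotype spread.

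The set held one group that was lower in the homozygous pools. Gsta2, Sult1d1, Sult1b1, Acsm2, Glyat and Nat8f1 were lower in every homozygous pool than in any control pool, by 2.11-fold to 3.00-fold. Control pool 1, with its high actin ratio, was the highest pool of all but Sult1b1. In fits without it the log2 differences were -1.30 for Gsta2, -1.42 for Sult1d1, -1.24 for Acsm2, -1.01 for Glyat and -0.82 for Nat8f1. Without both control pool 1 and homozygous pool 5 they were -1.36, -1.54, -1.30, -1.16 and -0.85. The part of RNA integrity was not tested. None of the 62 genes passed the threshold of limma (adjusted p under 0.05 over all genes), at which 78 genes were called lower (0.429% of those tested) and 98 higher (0.539%). The smallest adjusted p among the 62 was 0.0753, for Gsta2 and Sult1d1. At an unadjusted p under 0.05 there were 8 lower and 5 higher genes, where over all genes 5.89% were lower and 9.83% higher. The groups did not overlap for 6 genes, all of them lower, or 9.68% of the 62, against 2.10% of all genes lower and 2.61% higher. The median difference was -0.12 over the 62 genes and 0.00 over all genes, with 37 genes below 0, 24 above 0 and Sult3a1 at the floor on every array.

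The count of 0 changed with the treatment of dim values and with array weights. With no floor (log2 of intensity plus 16), Acsm2, Gsta2 and Sult1d1 passed, with an adjusted p of 0.0489, 0.0442 and 0.0430 in limma. The same genes passed with the dimmest 40% of genes left out, and with array weights Glyat passed beside them (limma adjusted p = 0.0415). No gene of the families passed higher under these settings. More genes passed over the whole table as well: 1.66% with no floor, against 3 of the 62, and 2.59% with the dimmest left out, against 3 of the 31 that remained. With array weights 5.23% of all genes passed, against 4 of the 62, or 6.45%.

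**Figure D1:**
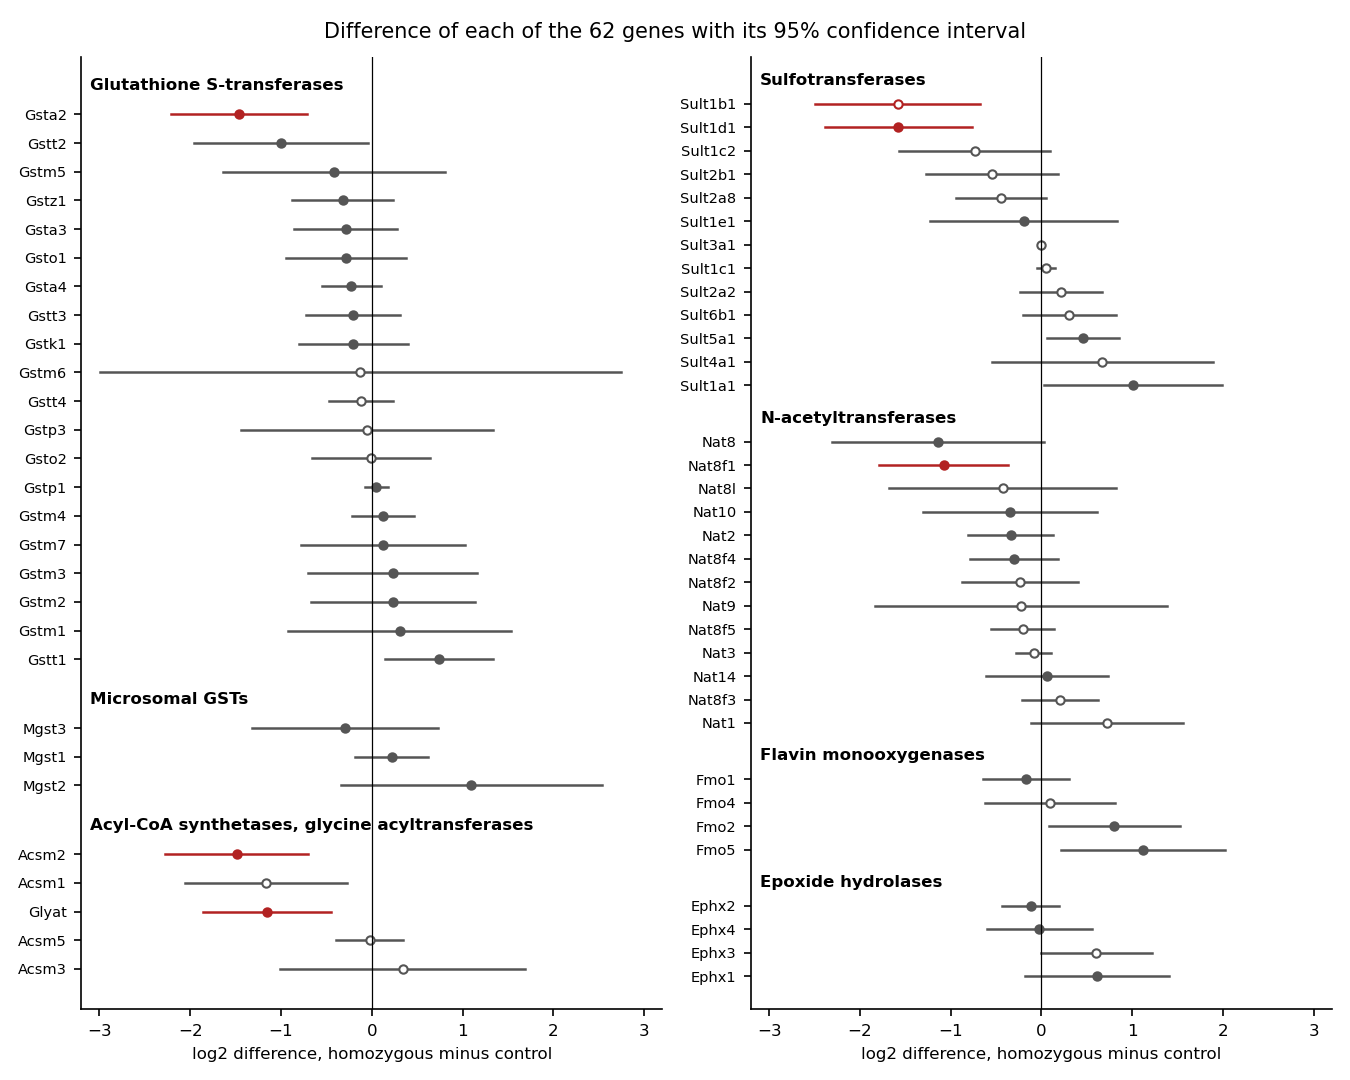
Difference between homozygous and control pools on the log2 scale for each of the 62 genes (x axis), ordered within each family. Points are fitted differences and bars 95% confidence intervals; filled points mark genes above the floor on all arrays, open points those at the floor on at least 1 array, and red the 6 genes whose groups did not overlap, all to the left of 0.

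Gsta2 encodes an alpha-class glutathione S-transferase (GRCm38.p6, chr9:78331018-78347192). Its intensity was 728, 1148, 392, 853 and 896 in homozygous pools 1 to 5 and 3285, 1682, 2852, 1411 and 1779 in control pools 1 to 5. The highest homozygous pool, pool 2, lay below the lowest control pool, pool 4, and control pools 1 and 3 stood above the other controls. The mean log2 intensity was 9.57 ± 0.58 (SD, n = 5) against 11.03 ± 0.52 (SD, n = 5), a difference of -1.46 ± 0.33 (SE; limma adjusted p = 0.0753). The other alpha-class genes were closer to 0, with Gsta3 at -0.29 (95% confidence interval -0.86 to 0.28) and Gsta4, which acts on products of lipid peroxidation, at -0.23 (-0.55 to 0.10). Whether Gsta2 differed from these in its response was not tested.

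The sulfotransferase genes Sult1d1 and Sult1b1 are neighbours on chromosome 5 and act on phenols and related small molecules. Sult1d1 (chr5:87554650-87569006) had 625, 965, 300.0, 846 and 937 in homozygous pools 1 to 5 and 3105, 1467, 2553, 1940.4 and 1509 in control pools 1 to 5. All homozygous pools lay below 1467, the lowest control, with pool 3 the lowest of them. The difference was -1.58 ± 0.36 (SE; limma adjusted p = 0.0753), and its second probe set gave -1.81. Sult1b1 (chr5:87513327-87538195) was dim, at 8.69, 24.9, 6.62, 24.2 and 14.3 in homozygous pools and 68.9, 149, 46.1, 43.3 and 29.0 in control pools. Its groups came close, with 24.9 in homozygous pool 2 and 29.0 in control pool 5. The floor held 3 homozygous arrays of Sult1b1, so its difference of -1.58 ± 0.40 (SE; limma adjusted p = 0.0974) depends on the floor. It was -0.26 with the floor at 64 and -1.28 with no floor (log2 of intensity plus 16). The third gene of this stretch, the estrogen sulfotransferase gene Sult1e1, differed by -0.20, with overlapping groups.

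Acsm2 and Glyat encode successive enzymes of glycine conjugation. Acsm2 (chr7:119554340-119600694) had 256, 425, 248, 473 and 421 in homozygous pools 1 to 5, against 1977, 721, 1322, 792 and 629 in control pools 1 to 5. The homozygous pools lay below all controls, and control pools 1 and 3 were again the highest. The difference was -1.49 ± 0.35 (SE; limma adjusted p = 0.0812). Of the other 3 probe sets of Acsm2, the groups of 2 did not overlap either (-1.67 and -1.58), and the dimmest differed by 0.07.

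Glyat (chr19:12633308-12651737) stood at 280.1, 497, 254, 523 and 629 in homozygous pools and 1401, 662, 1138, 803 and 762 in control pools. Its groups nearly met, at 629 in homozygous pool 5 and 662 in control pool 2. The difference was -1.16 ± 0.31 (SE; limma adjusted p = 0.112), while the dimmer probe sets gave -1.24 and 0.28 and the mean of all 3 gave -0.71. Acsm1, a neighbour of Acsm2 on chromosome 7, differed by -1.16 ± 0.39 (SE; limma adjusted p = 0.188), from 34.7 to 87.0 in control pools to 8.40 to 42.1 in homozygous pools, which overlap. Acsm3 and Acsm5 of the same stretch differed by 0.34 and -0.02, and Acsm5 was at the floor on 7 arrays.

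Nat8 and its relatives form a cluster on chromosome 6, and NAT8 acetylates cysteine conjugates in the last step to mercapturates. Nat8f1 (chr6:85910154-85915914) had 279.7, 329, 357, 418 and 382 in homozygous pools 1 to 5 and 1527, 616, 949.7, 539 and 456 in control pools 1 to 5. The homozygous pools lay close together below all controls, while the controls spread widely, with pool 1 the highest. The difference was -1.08 ± 0.31 (SE; limma adjusted p = 0.136), and a dimmer probe set gave -0.44. Nat8 (chr6:85830387-85836857) had 18.6, 78.3, 79.9, 156 and 102 in homozygous pools and 202, 125, 210.1, 137 and 133 in control pools. Homozygous pool 4 of Nat8 lay among the controls and pool 1 far below the rest, so the groups overlapped (-1.14 ± 0.52, SE; limma adjusted p = 0.33). The difference of Nat8 was -2.17 with the Xist level as a covariate and -0.66 without homozygous pool 1. Nat8f4, Nat8f2 and Nat8f5 differed by -0.30, -0.24 and -0.20 and Nat8f3 by 0.20, the last 3 of these with arrays at the floor.

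These genes were set beside markers of the proximal tubule, which includes the phosphate transporter gene Slc34a1, the endocytic receptor gene Lrp2 and Hnf4a. Over the 17 markers the mean log2 intensity was 7.22 to 7.82 in homozygous pools and 8.16 to 8.96 in control pools, with no overlap. Of the 17, 7 fell (limma adjusted p under 0.05), 8 others were below 0 and 2 above it, and their median was -1.26. Markers of other kidney parts differed in direction, and none passed in limma. Below 0 were 7 of 8 nephron progenitor markers (median -0.54) and 4 of 4 podocyte markers (median -0.55). Of the ureteric bud and collecting duct markers 5 of 8 were below 0 (median -0.39, range -1.15 to 1.69). Of 5 renal stroma markers 2 were below 0 and 3 above it (median 0.03). The log2 level of each of the 6 genes was also taken relative to the proximal tubule mean in each pool. The groups then overlapped for all 6, while every mean gap was lower in the homozygous pools. The mean gaps differed by -0.52 for Sult1b1, -0.51 for Sult1d1, -0.42 for Acsm2, -0.39 for Gsta2, -0.09 for Glyat and -0.01 for Nat8f1, with no test. For Gsta2 this gap was 1.40 to 2.61 in homozygous and 1.97 to 3.11 in control pools, and for Nat8f1 it was 0.81 to 1.26 and 0.50 to 2.01. In bulk tissue fewer cells of a type and less RNA per cell cannot be told apart. Several of these genes are also active in adult liver, and liver markers were uneven between pools, with means of 11.02 in homozygous pool 1, 9.65 in homozygous pool 3, 10.90 in control pool 4 and 7.24 to 7.98 in the other pools. The part of liver RNA in these values was not tested.

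**Figure D2:**
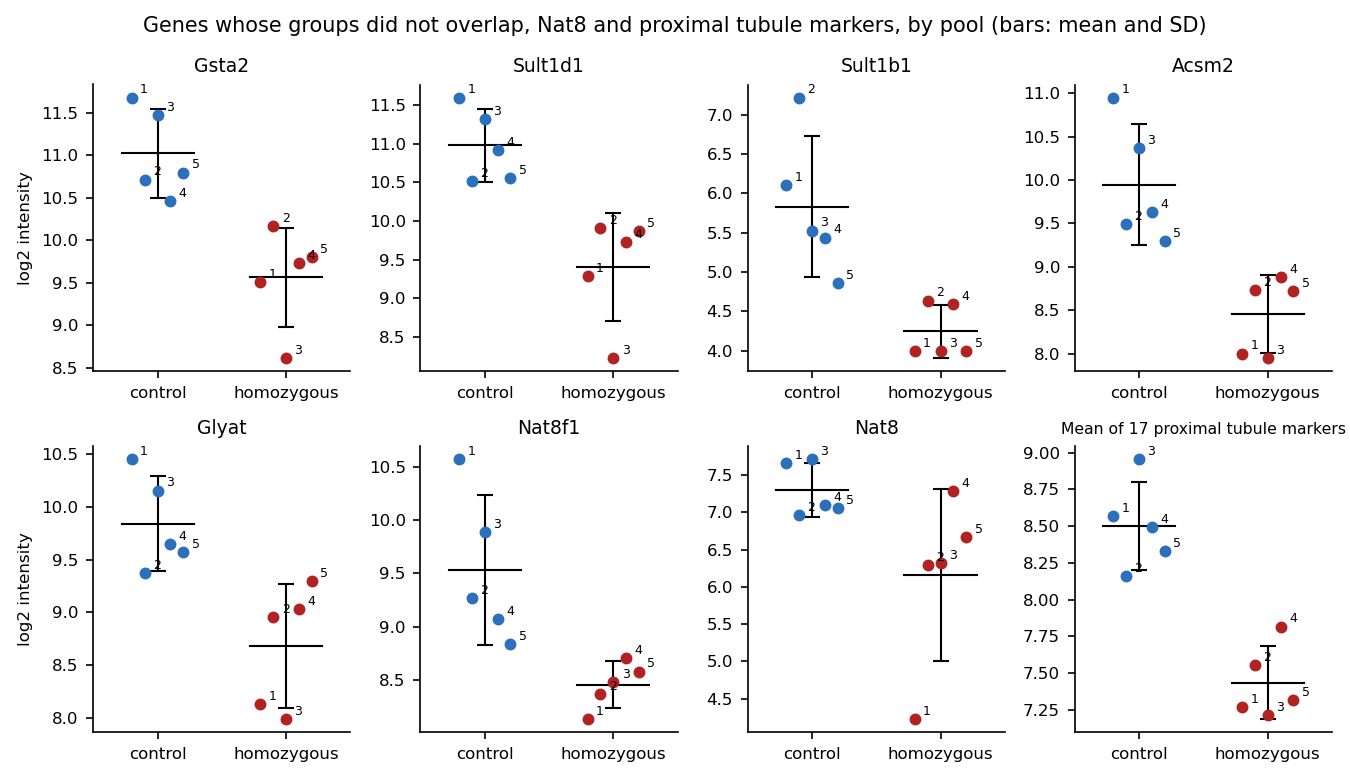
Log2 intensity by pool (numbered points) in control and homozygous pools for the 6 genes whose groups did not overlap, for Nat8 and for the mean of 17 proximal tubule markers. Horizontal lines are means and bars SDs over 5 pools; homozygous points lie below all control points in every panel other than Nat8, where homozygous pool 4 at an intensity of 156 lies among the controls.

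Hnf4a, a nuclear receptor of proximal tubule and liver cells, was 1 of 16 measured regulators of conjugation genes on a list set beside the families. It fell by 1.51 ± 0.21 on the log2 scale (SE; limma adjusted p = 0.0295), from 1669 to 2896 in control pools to 611 to 1067 in homozygous pools. No other regulator passed in either direction. The next smallest p belonged to Cebpb, a leucine zipper factor of liver and inflammation, at 1.06 ± 0.37 (SE; limma adjusted p = 0.203) with overlapping groups. Nfe2l2, which encodes the Nrf2 factor that drives many glutathione genes, differed by -0.16, and its inhibitor gene Keap1 by 0.01.

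Promoter windows from 250 bases before to 50 bases after the start site (RefSeq, GRCm38.p6) were at hand for 52 of the 62 genes, 73 windows in all. They were searched on both strands for the HNF1 motif GTTAATNATTAAC with at most 2 mismatches, the HNF4 motif CAAAGTCCA and the Nrf2 element TGACNNNGC, the last 2 without mismatch. HNF1 and HNF4 are factors of the proximal tubule and liver, and an Nrf2 element is a common feature of glutathione genes. A match describes the letters of a window and does not show binding. The 4 windows shown are those of the lower genes and Nat8 that hold an HNF1 or HNF4 match, in capitals: Sult1d1 (chr5:87568957-87569256, minus strand), Acsm2 from its downstream start site (chr7:119561458-119561757, plus strand), Sult1b1 from its downstream start site (chr5:87536173-87536472, minus strand) and Nat8 from its downstream start site (chr6:85832230-85832529, minus strand). Each is printed 5′ to 3′ along the gene.
Sult1d1: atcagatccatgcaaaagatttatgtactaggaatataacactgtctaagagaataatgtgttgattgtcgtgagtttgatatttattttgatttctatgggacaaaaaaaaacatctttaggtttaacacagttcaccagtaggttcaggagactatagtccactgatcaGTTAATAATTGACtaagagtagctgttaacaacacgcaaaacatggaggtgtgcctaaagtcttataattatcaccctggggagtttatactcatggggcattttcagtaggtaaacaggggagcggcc
Acsm2: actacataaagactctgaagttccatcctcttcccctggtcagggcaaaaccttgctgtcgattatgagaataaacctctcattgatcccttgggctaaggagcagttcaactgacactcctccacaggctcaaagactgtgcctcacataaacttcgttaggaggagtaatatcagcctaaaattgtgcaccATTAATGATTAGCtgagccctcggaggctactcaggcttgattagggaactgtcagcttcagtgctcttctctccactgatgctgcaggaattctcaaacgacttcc
Sult1b1: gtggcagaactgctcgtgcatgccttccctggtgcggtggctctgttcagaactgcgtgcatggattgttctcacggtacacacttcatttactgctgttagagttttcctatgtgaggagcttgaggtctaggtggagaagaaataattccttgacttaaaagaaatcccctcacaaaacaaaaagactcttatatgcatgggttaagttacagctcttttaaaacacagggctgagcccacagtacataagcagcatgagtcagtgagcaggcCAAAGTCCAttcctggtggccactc
Nat8: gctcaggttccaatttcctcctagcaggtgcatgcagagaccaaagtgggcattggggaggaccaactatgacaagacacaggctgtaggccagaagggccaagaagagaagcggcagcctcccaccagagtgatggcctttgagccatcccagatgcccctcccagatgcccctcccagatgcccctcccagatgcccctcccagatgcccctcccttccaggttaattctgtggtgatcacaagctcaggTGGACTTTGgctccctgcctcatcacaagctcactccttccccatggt

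The HNF1 match of Sult1d1 spanned positions -79 to -67 from the start site with 1 mismatch, and that of Acsm2 spanned -57 to -45 with 2 mismatches. The HNF4 matches lay past the start site, at 25 to 33 in Sult1b1 and at 2 to 10, on the opposite strand, in Nat8. Windows with the HNF1 motif numbered 3 of 73 in the families, the third being that of Nat8f5, against 1.36% of all 32851 windows. The HNF4 motif was in 2 of 73 windows, against 0.475% of all. The Nrf2 element was in 6 of 73 windows, those of Gsta3, Gstm5, Gstm7, Mgst1, Nat8f4 and the upstream start of Acsm2, against 12.4% of all. Of these genes with the Nrf2 element, Acsm2 alone had groups that did not overlap. Gsta2, Glyat and Nat8f1 had none of the 3 motifs in their windows.

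The 7 mu-class genes, which lie together on chromosome 3, differed more between pools of a genotype than between genotypes. Their differences ran from -0.42 to 0.30 with no unadjusted p under 0.05. Gstm6, chosen after its values were seen, had 179, 283, 6.09, 22.2 and 5.03 in homozygous pools 1 to 5 and 2.34, 8.19, 347, 20.9 and 239 in control pools 1 to 5. Homozygous pools 1 and 2 and control pools 3 and 5 were high, and the other 6 were at or near the floor. The within-group SD of Gstm6 was exceeded by 0.335% of all genes. Gstm2 was highest in the same 4 pools, at 2545 and 3028 in homozygous pools 1 and 2 and 3097 and 2582 in control pools 3 and 5, against 944 to 1725 in the rest. At their probe sets of highest mean, Gstm1 (3002, 2930.0, 2849 and 1901) and Gstm7 (559, 909.8, 744 and 809) also had their highest values in these 4 pools. A further bright probe set of Gstm1 did too (2500, 2062, 2182 and 1904), but dimmer probe sets did not. At a dimmer probe set of Gstm1 homozygous pool 1 was at 72.6, and at another control pool 5 (176) lay below control pool 2 (216). At the dimmer probe set of Gstm7 homozygous pool 1 was the lowest pool, at 62.1.

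The same 4 pools carried fetal testis transcripts. The mean log2 intensity of 7 testis markers was 8.97 and 9.36 in homozygous pools 1 and 2 and 9.39 and 9.46 in control pools 3 and 5, against 5.05 to 6.37 in the other pools. Control pools 1, 2 and 4, which were also low in Xist, were among these other pools, at 5.31, 5.05 and 5.35. Cyp17a1, a steroid enzyme of Leydig cells, lay between 5002 and 7579 in the 4 pools and between 3.83 and 37.4 in the rest. Amh, the hormone of Sertoli cells, lay between 316 and 690.2 in the 4 pools and between 3.36 and 9.03 in the rest. With 2 such pools in each genotype, the part of testis RNA in the Gstm values was not tested. Gstm5 was high in the 4 pools but did not set them apart. It had 4033 and 3313 in homozygous pools 1 and 2 and 3756 and 3822 in control pools 3 and 5. Control pool 4 had 3824. The lowest values of Gstm5, 627 and 1179, were in homozygous pool 5 and control pool 1, the pools with the high actin ratio. Gstm3 and Gstm4 had 44.5 to 181 and 187 to 297.

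**Figure D3:**
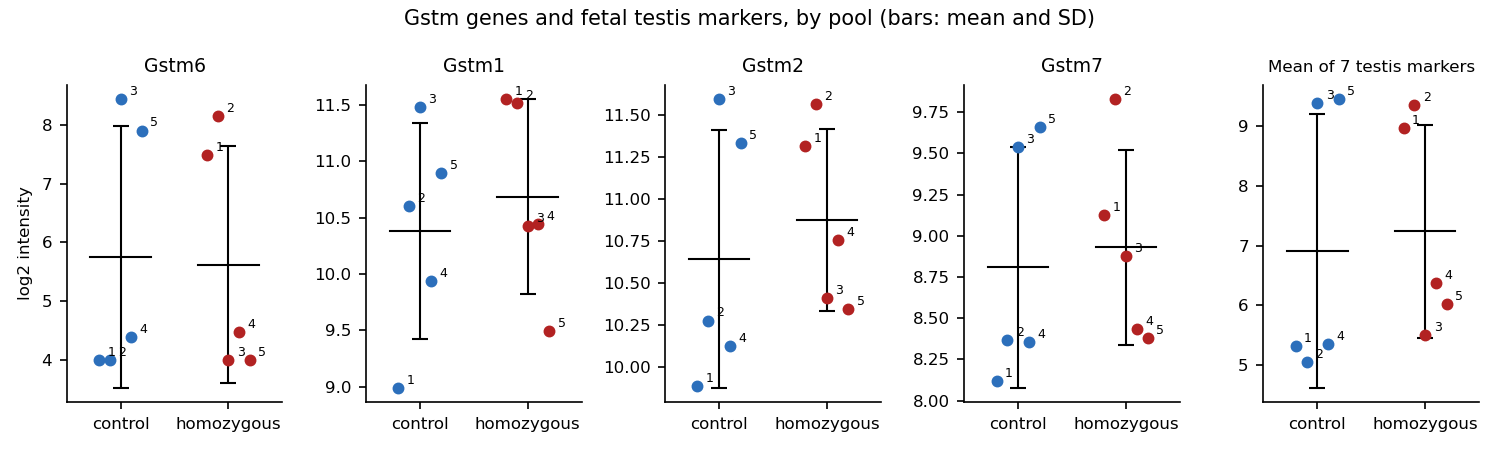
Log2 intensity of Gstm6, Gstm1, Gstm2 and Gstm7, each at its probe set of highest mean, and the mean of 7 fetal testis markers. Points are pools numbered within each genotype, with the mean and SD over 5 pools. Homozygous pools 1 and 2 and control pools 3 and 5 are the highest points of their group in every panel, as in Gstm6, where they lie at 179 to 347 in intensity.

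The theta-class genes differed in direction. Gstt1, which handles small halogenated molecules, had 831, 590.5, 540.2, 454 and 860.3 in homozygous pools 1 to 5 and 398, 491, 543, 303 and 248 in control pools. Homozygous pools 3 and 4 lay within the control range, and the difference was 0.74 ± 0.26 (SE; limma adjusted p = 0.211). Gstt2, its neighbour on chromosome 10, differed by -0.9999 ± 0.42 (SE; limma adjusted p = 0.299), with 52.0 to 173 in homozygous and 107 to 310.2 in control pools. Its groups overlapped through control pool 1 alone, and without homozygous pool 5 and control pool 1 they did not, at a difference of -0.99. Gstt3 and Gstt4 differed by -0.21 and -0.12.

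The remaining transferases of glutathione differed little or varied with the pool. Gstp1, a pi-class enzyme found in many embryonic tissues, had 7749 to 9371 in homozygous and 7873 to 8457 in control pools, a difference of 0.05 with a 95% confidence interval of -0.08 to 0.18. Gsto1, Gstz1 and Gstk1, of the omega, zeta and kappa classes, differed by -0.29, -0.32 and -0.20, and Gsto2 and Gstp3, both with arrays at the floor, by -0.01 and -0.05. Of the microsomal enzymes, Mgst1 had 5064, 7635, 8793, 6152 and 9621 in homozygous pools 1 to 5 and 6697, 6275, 6497, 5043 and 6854 in control pools 1 to 5. The controls lay inside the range of the homozygous pools but for pool 4, just below it, and the difference of 0.22 ± 0.18 (SE; limma adjusted p = 0.62) turned to -0.0044 without homozygous pools 3, 4 and 5. Mgst2, which can make leukotriene C4, had 79.1, 185, 434, 104 and 446 in homozygous and 59.8, 189, 43.3, 75.8 and 179 in control pools. Homozygous pools 3 and 5 stood apart at the top and the other pools overlapped (1.10 ± 0.64, SE; limma adjusted p = 0.468). The difference of Mgst2 was 0.33 with the Xist level as a covariate and 0.64 without homozygous pool 5 and control pool 1. Mgst3 differed by -0.30, with its lowest values, 172 and 233, in control pool 1 and homozygous pool 5.

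Among the other sulfotransferases, those with a positive difference were led by Sult1a1, the main phenol sulfotransferase, with 408, 734, 802, 399 and 414 in homozygous pools 1 to 5 and 137, 158, 227, 549.7 and 446 in control pools 1 to 5. Control pools 4 and 5 lay within the homozygous range, and the difference was 1.01 ± 0.43 (SE; limma adjusted p = 0.306). Sult5a1 differed by 0.46 ± 0.18 (SE; limma adjusted p = 0.253), from 229 to 397 in control to 342 to 554 in homozygous pools. Sult4a1, a sulfotransferase-like gene of neurons, differed by 0.67, with 6.71 to 127 in homozygous and 25.2 to 42.8 in control pools. Sult1c2, Sult2b1 and Sult2a8 differed by -0.74, -0.55 and -0.45, Sult6b1, Sult2a2 and Sult1c1 by 0.31, 0.21 and 0.05, and all 6 were at the floor on at least 1 array.

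Of the flavin monooxygenases, which oxidize nitrogen and sulfur in small molecules, Fmo5 and Fmo2 had the largest positive differences. Fmo5 had 223, 92.0, 237, 291 and 312 in homozygous pools 1 to 5 and 88.4, 204, 81.4, 83.8 and 75.3 in control pools 1 to 5. The overlap came from homozygous pool 2 and control pool 2, and the difference was 1.11 ± 0.40 (SE; limma adjusted p = 0.211), or 0.49 with the Xist level as a covariate. Fmo2 had 413, 404, 742, 468 and 238 in homozygous and 143, 239, 264, 303 and 314 in control pools. Homozygous pool 5 alone lay among the controls (0.80 ± 0.32, SE; limma adjusted p = 0.267). A dimmer probe set of Fmo2 differed by 1.53 with groups that did not overlap. It was the only higher one of the 92 probe sets, against 1.78% of all probe sets, while 9 were lower, against 1.51% of all, and 0 of the 92 passed when each was fitted by itself. The 9 lower ones were of Acsm2, Sult1d1, Gsta2, Glyat, Nat8f1 and Sult1b1, genes already counted above. Fmo1, the main form of the mouse kidney, had 1244 to 2107 in homozygous and 1141 to 2153 in control pools, a difference of -0.17, and Fmo4 differed by 0.09.

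The epoxide hydrolases open reactive epoxides. Ephx1, the microsomal form, had 410.3, 648, 398, 245 and 372 in homozygous pools 1 to 5 and 168, 163, 432, 254 and 384 in control pools 1 to 5. Control pools 1 and 2 were the lowest and the other 3 lay within the homozygous range (0.61 ± 0.35, SE; limma adjusted p = 0.463). It was 1.02 with the Xist level as a covariate and 0.27 with array weights. Ephx3 was dim, at 11.2, 32.9, 45.3, 29.0 and 34.0 in homozygous and 28.5, 6.76, 17.3, 18.6 and 19.7 in control pools. Homozygous pool 1 was below 4 of the controls, and the difference was 0.60 ± 0.27 (SE; limma adjusted p = 0.323), or 0.18 with the Xist level as a covariate. Ephx2, the soluble form, and Ephx4 differed by -0.12 and -0.02.

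Markers of tissues around the kidney moved with the genotype or the pool. For the adrenal cortex the mean over 10 markers was 8.61 to 11.48 in homozygous pools, 6.08 and 6.06 in control pools 1 and 2 and 8.996 to 10.87 in control pools 3 to 5, and 0 of the 10 markers passed in limma. Control pools 1 and 2, lowest in adrenal markers, were also lowest in Ephx1 and Sult1a1, and homozygous pools 3 and 5, highest in Mgst2, had adrenal means of 11.32 and 10.19. Homozygous pool 2 and control pool 5, with adrenal means of 11.48 and 10.87, had Mgst2 at 185 and 179, near control pool 2 at 189. Neuron and chromaffin markers had means of 9.58 to 10.92 in homozygous and 5.83 to 8.93 in control pools, without overlap. All 13 of these markers were higher, each at an unadjusted p under 0.05 in limma, the groups of 5 did not overlap, and Npy alone passed the threshold. Muscle marker means were 10.03 to 12.12 and 7.12 to 10.25, and macrophage means 8.08 to 8.38 and 7.68 to 8.09, where 2 of 6 markers rose. The part of these tissues in the higher values of Sult1a1, Sult4a1, Mgst2, Fmo2, Fmo5 and Ephx1 was not tested.

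The arylamine N-acetyltransferase genes Nat1, Nat2 and Nat3 differed by 0.72, -0.34 and -0.09, and Nat1 and Nat3 were at the floor on some arrays. Nat10, Nat9 and Nat14, which encode acetyltransferases of other substrates, differed by -0.35, -0.22 and 0.06. Nat8l, the N-acetylaspartate synthase of neurons, differed by -0.43, with 12.5 to 140 in homozygous and 60.8 to 107 in control pools. The confidence intervals of all 7 included 0.

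The steps around conjugation were followed in 7 lists with 101 measured genes. Of these 2 fell and 0 rose in limma, where over all genes 0.429% fell and 0.539% rose. At an unadjusted p under 0.05 in limma, 14 were lower and 10 higher, against 5.89% and 9.83% of all genes. The genes that fell were Hnf4a and Aspa. Aspa is listed with the mercapturate steps and exporters (14 measured) and cleaves N-acetylaspartate, and it fell by 1.16 ± 0.20 on the log2 scale (SE; limma adjusted p = 0.0454), from 648 to 1181 in control to 298 to 470.3 in homozygous pools. The organic anion transporter genes Slc22a6 and Slc22a8 of that list differed by -0.92 and -1.26 without passing. Both, like Hnf4a, are also among the proximal tubule markers above, so they are counted in both places. In the sulfate list 12 of 14 genes were below 0. The groups of 3, Slc26a1, Csad and Papss2, did not overlap, where 2.10% of all genes were lower without overlap. Slc26a1, a sulfate exchanger, had 5.82 to 51.0 in homozygous and 57.0 to 104 in control pools (-1.56 ± 0.34, SE; limma adjusted p = 0.0715). Slc13a1, the apical sodium-sulfate cotransporter gene of the proximal tubule, had 31.2 to 80.2 and 72.5 to 177 (-1.34 ± 0.31, SE; limma adjusted p = 0.0811). Papss2, an enzyme that makes PAPS, differed by -0.51, and the median of the list was -0.28.

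Glutathione supply was closer to even. Of 17 measured genes of glutathione synthesis and recycling, 0 passed, 10 were below 0 and the median was -0.16. Gclc, the catalytic subunit of the rate-limiting enzyme, had 998 to 1191 in homozygous and 1196 to 1643 in control pools, a difference of -0.34 ± 0.09 (SE; limma adjusted p = 0.112) without overlap. Dpep1, a dipeptidase that trims glutathione conjugates, differed by 1.12 ± 0.37 (SE; limma adjusted p = 0.178), and its groups overlapped. Among 16 peroxidase and thiol genes Gpx6, a dim probe set at the floor on 1 array, differed by -1.76 and Gpx4 by 0.69, each without overlap, at limma adjusted p of 0.0558 and 0.143. The 16 acyl-CoA partners had Acsl6 at 0.92 and Acsl5 at -0.40, with 0 past the threshold. Of 12 Nrf2 response genes, 4 of them (Gclc, Gclm, Slc7a11 and Txnrd1) also on the lists above, 0 passed in limma. Aox1 was the highest, at 132 to 294 in homozygous and 43.7 to 98.8 in control pools (1.55 ± 0.30, SE; limma adjusted p = 0.0558), and Nqo1 differed by 0.15.

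**Figure D4:**
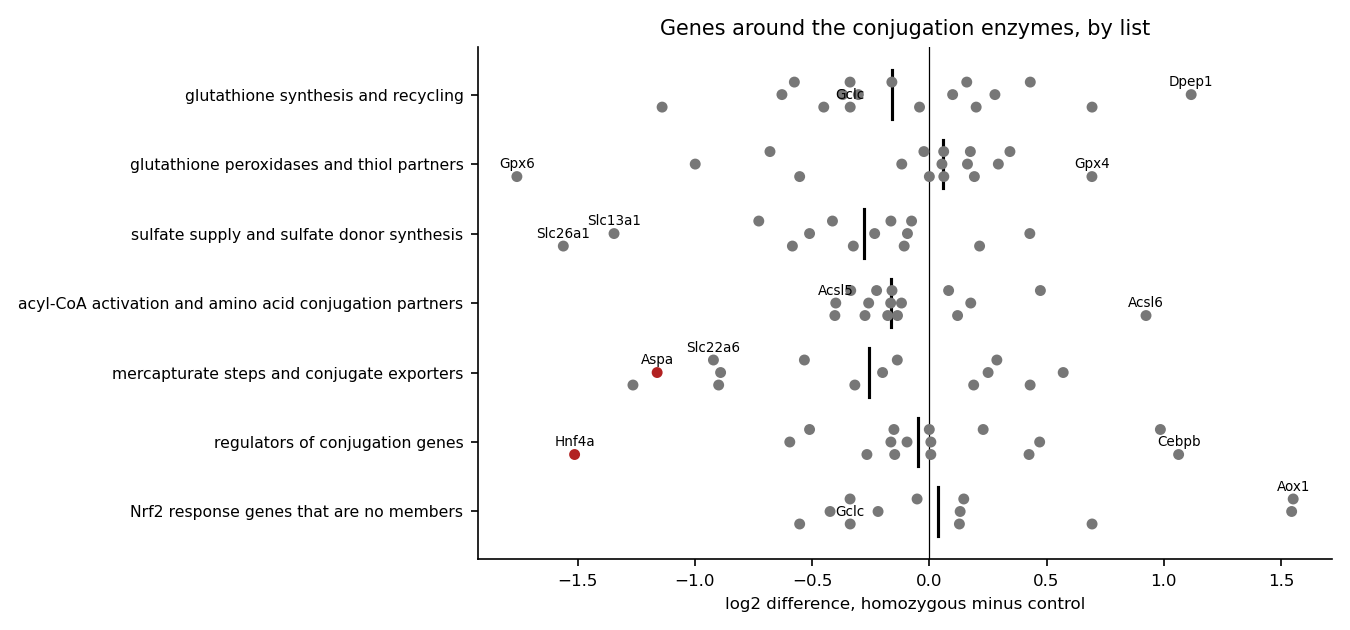
Log2 difference between homozygous and control pools for each measured gene of 7 lists around the conjugation enzymes. Black lines are list medians, from -0.28 (sulfate supply) to 0.06 (peroxidases); red points, Hnf4a at -1.51 and Aspa at -1.16, passed the threshold.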

How the data were processed

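Per the labels, RNA of 5 distinct pools per genotype was extracted with Trizol and labelled with biotin; groups follow the genotype label. The titles of homozygous pools 1 to 4, and of no other pool, end in CHP; whether these arrays were processed apart, which would be tied to genotype, is not given in the sources used here. The series design text describes another tissue, stage and allele and was not used. The authors deposited linear intensity values, 1 for each probe set on each array. After trimming 2% of values at either end, every one of the 10 arrays had a mean of 500. How probe sets were summarized, and with which program, is not given in the sources used here. A common trimmed mean hides changes in total RNA and leaves noise in dim probe sets.

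Of 45101 probe sets, 64 controls, 932 with several symbols (2 with a name of these families) and 9160 without one were left unnamed. Intensities were floored at 16 and taken to log2, and each of 18193 genes was represented by its probe set of highest mean. Groups were compared in limma 3.58.1 under R 4.3.3 (lmFit, eBayes with trend, no block), two-sided, with Benjamini-Hochberg adjustment over all genes and a threshold of 0.05, after the fit was tested on simulated data. Promoters were scanned in Python 3.11.15, and coordinates and promoters are RefSeq's for GRCm38.p6. The genes, lists and markers were chosen with earlier results of these data known. Values in each pool, or for list genes their range or difference, are given for genes past the threshold or without overlap, for the 2 of each family with the smallest p, and in the lists, for at most 4 that passed or, with none, for the 2 of smallest p; other genes singled out were chosen after their values were seen. Alternatives concerned probe sets, normalization, floor, dim genes, variance model, array weights, replicate block, Xist level and left-out pools. Replicate numbers did not pair the pools.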

Additional observations from a re-analysis of the deposited data

Results flagged for a closer look

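A single pool stood apart from the other 4 of its group in 21 of 120 groups looked at. The measure was the gap of that pool to its nearest neighbour over the range of the group. Chance alone gives about 1 in 20 where values are not tied. Where the other 4 pools all lie at the floor, any value over it stands apart and that rate does not hold. This was so for Acsm5, Gstt4 in each group, Nat8f5, Nat3, Sult2a2 and Sult1c1. Intensities are given. Homozygous pool 5 was the low pool of Gstz1 (114), Gstk1 (338) and Nat14 (59.1). Control pool 1 was the low pool of Gstt2 (107), Gstm5 (1179) and Nat9 (6.58) and the high pool of Nat8f3 (22.6). These are the arrays with the high actin ratio, and its part was not tested. Control pool 2 was the high pool of Fmo5 (204), Gstm3 (181), Nat3 (21.7) and Sult2a2 (25). Homozygous pool 2 was the low pool of Fmo5 (92) and the high pool of Acsm5 (25.9), Nat8f5 (17.6) and Nat8f3 (31.1). Control pool 4 was the low pool of Mgst1 (5043). The other pools that stood apart were high: Gstt4 in control pool 3 (27.7) and homozygous pool 1 (18.3), Sult1c1 in control pool 3 (17.1), Sult2a8 in homozygous pool 1 (20.6) and Sult6b1 in homozygous pool 4 (38.1). Several of these values lie near the floor of 16.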

How the results depend on the processing

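No gene of the families passed higher in any fit that was run. Genes passing lower numbered 3 with no floor, 3 with the dimmest 40% of genes left out, 4 with array weights and 0 in the other fits, leave-one-out fits included. When every probe set was counted by itself, 10 had groups that did not overlap. Of these, 9 were lower and belonged to the 6 genes, and 1, of Fmo2, was higher. Genes whose groups did not overlap numbered 5 with quantile normalization, with a floor of 64 or with the dimmest 40% of genes left out. Such genes numbered 10 without homozygous pool 5 and control pool 1 (9 lower, with Gstt2, Gstz1 and Nat2 added, and Fmo2 higher), a setting at which 5.13% of all genes were lower and 5.85% higher without overlap. They numbered 10, too, without homozygous pools 3, 4 and 5, the Xist-high pools (7 lower, with Nat8 added, and Fmo2, Gstt1 and Gstm1 higher), where 6.42% of all genes were lower and 8.09% higher without overlap. Over the whole table the 176 genes past the threshold became 109 with the mean of probe sets, 104 with each probe set by itself, 89 with a floor of 64, 302 with no floor, 283 without the dimmest 40%, 951 with array weights and 13 with the Xist level as a covariate. They became 23 without homozygous pool 5 and control pool 1 and 28 without homozygous pools 3, 4 and 5. When 1 pool was left out they became 3 to 414 (3 without homozygous pool 3 or control pool 3, 414 without control pool 2). Fewer samples enter the fits with pools left out. Those with 1 pool left out have equal numbers of arrays, and the cause of their spread was not tested. With the replicate block 1 gene passed, none of the families; same-numbered pools correlated at -0.55 to -0.17 in their deviations and 0 of 5 correlated best with its own number, so the numbers do not pair the pools. Mgst1 reversed to -0.046 with the Xist level as a covariate and to -0.0044 without homozygous pools 3, 4 and 5; the cause was not tested. The Xist covariate also moved Nat8, Mgst2, Fmo5, Ephx1 and Ephx3 by over 1.5 times, as given beside their values. The 6 genes without overlap kept a negative difference under all alternatives that gave one. With pools left out, another floor, array weights or another variance model that sign was fixed in advance. These genes were picked because all homozygous values lay below all control values. The largest adjusted p of limma for them under the alternatives was 0.783, for Sult1b1 with a floor of 64. Signal over background limits Sult1b1, Ephx3, Nat3 and the dim sulfotransferases.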
